A study of Homo sapiens with 6 samples.

Results

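The genes described here are those of the hypoxia response and of glycolysis in U373 cells, an established human glioblastoma line. They were chosen as the probe sets annotated with exactly 1 of 39 listed gene symbols. Of the 39 genes, 36 were found, on 52 of the 12625 probe sets of the array, while CA9, HK1 and SLC16A3 were not matched to a probe set. Of these 52 probe sets, 6 are GAPDH control probe sets, which were kept out of the tests, and 44 of the other 46 were bright enough to be tested and covered all 36 genes. The members fall into 3 lists: 3 subunits of the hypoxia-inducible factors (HIF), 16 glycolytic enzymes and 17 other hypoxia targets.

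Messenger RNA was measured on 6 arrays, 1 for each condition. Untransfected, untreated cells were sampled at day 1. Cells transfected with syk, a tyrosine kinase placed under an ecdysone-inducible system, were sampled untreated at day 1 and day 2, in ethanol at day 1, and in ethanol with ponasterone A at day 1 and day 2. Ponasterone A (PonA), a plant ecdysteroid, switches such a system on and was given at 10 µM; the labels state 6 to 48 hours for the series and no exact exposure for each array. No untransfected cells received PonA, no ethanol array stood at day 2, and the labels do not say whether the transfected cells were a pool or 1 clone. All cells grew under standard conditions with 5% CO2, and the labels name no low-oxygen treatment.

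HIF is a pair of proteins, an oxygen-regulated alpha subunit (HIF1A or EPAS1, also called HIF-2 alpha) and the stable partner ARNT. When oxygen is plentiful the alpha subunits are hydroxylated and degraded, so much of the regulation of HIF lies in protein stability and not in the messenger RNA. When oxygen is short, HIF binds a short core sequence near its target genes and raises glucose transporters, glycolytic enzymes, pH regulators and collagen-modifying enzymes, a response that marks the tissue around necrosis in glioblastoma. Glioma cells also run glycolysis at a high rate with oxygen present, and the enzymes of the chain are among the brightest messages of many cell lines.

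Values are MAS5 signals, the array software's brightness per probe set in arbitrary units. A signal under the 40th percentile of its array, 22.7 to 26.5 units, is called below the floor. The arrays were scaled alike, with a trimmed mean of 149.925 to 149.93, and correlated with each other at a Pearson r of 0.946 to 0.985 across probe sets. The 3′ to 5′ signal ratio of GAPDH was 0.939 to 1.04, and that of beta-actin 0.960 to 0.987 at day 1 but 1.21 and 1.20 on the untreated and PonA arrays of day 2. The spiked-in controls had a geometric mean signal of 157 on the untransfected array and of 271 to 501 on the transfected arrays. Of 12 astroglial markers measured, 7 lay above the floor on all 6 arrays, and AQP4 and SLC1A2 below it on all 6. The signal summed over the 12 was 12009 to 13234 on each array. GFAP, the glial filament protein, had a signal of 1533 in untransfected cells and of 103 to 229 in the 5 transfected samples. Some single markers moved with the conditions: the glutamate transporter SLC1A3 read 193 and 225 with PonA against 22.8 to 38.8 in transfected cells without it, and the growth cone gene GAP43 64.7 and 75.7 against 184 to 322. The neurofilament NEFL read 458 in untransfected cells and 10.1 to 26.5 in the transfected ones, and THY1 1247 against 390.0 to 529.8. The part of these shifts in the results was not tested. SNAP25 of neurons, MBP of oligodendrocytes, PTPRC of blood cells and EPCAM of epithelium were below the floor on all 6 arrays. Above it on all 6 were 3 of 8 neuronal markers (summed signal 938 to 1474) and 3 of 6 oligodendrocyte markers (681 to 1114). So were 3 of 7 blood cell markers (288 to 375) and 5 of 10 markers of fibroblasts or epithelium (2843 to 3680.1). Each sum runs over all measured markers of its kind, not only those above the floor. The neuronal sum includes ENO2, itself a member, at 518 to 832. Among the markers above the floor on all 6 were MAP2 (44.0 to 114), MAG (132 to 243), CD3E (58.7 to 83.2) and KRT8 (427 to 590). A probe set of SYK itself (548_s_at) was above the floor only on the PonA arrays, at 39.1 and 72.5, against 1.74 in untransfected cells and 14.4 to 22.2 in transfected cells without PonA; the brightest SYK probe set (1630_s_at) did not follow PonA, at 56.3 and 35.2 with it and 22.0 to 73.1 in transfected cells without it.

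The core of the HIF binding site is ACGTG or GCGTG, and the sequences before the starts of 7 members are shown to set members with positive PonA effects beside glycolytic enzymes. They are the 250 bases before the start site in RefSeq, build GRCh38.p14, written 5′ to 3′ on the gene's strand, with every match to ACGTG or GCGTG on either strand in capitals (CACGT and CACGC are those motifs on the other strand). The first 4 belong to EPAS1 (chr2:46297157-46297406, plus strand), CA12 (chr15:63381847-63382096, minus strand), ADM (chr11:10304823-10305072, plus strand) and PLOD2 (chr3:146161185-146161434, minus strand).
EPAS1: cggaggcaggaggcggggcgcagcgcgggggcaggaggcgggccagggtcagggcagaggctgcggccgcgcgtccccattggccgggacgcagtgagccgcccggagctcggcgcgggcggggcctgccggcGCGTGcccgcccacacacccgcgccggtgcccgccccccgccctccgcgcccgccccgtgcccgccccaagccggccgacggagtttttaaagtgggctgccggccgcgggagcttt
CA12: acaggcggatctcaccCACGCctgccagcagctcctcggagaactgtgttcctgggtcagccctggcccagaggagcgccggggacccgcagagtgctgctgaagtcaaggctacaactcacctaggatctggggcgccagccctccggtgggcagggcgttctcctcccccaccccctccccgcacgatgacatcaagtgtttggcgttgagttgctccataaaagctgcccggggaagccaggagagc
ADM: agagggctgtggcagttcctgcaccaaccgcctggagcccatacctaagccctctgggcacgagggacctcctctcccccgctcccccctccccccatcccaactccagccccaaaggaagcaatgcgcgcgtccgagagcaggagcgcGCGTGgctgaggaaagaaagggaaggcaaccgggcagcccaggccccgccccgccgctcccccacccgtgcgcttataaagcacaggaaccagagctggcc
PLOD2: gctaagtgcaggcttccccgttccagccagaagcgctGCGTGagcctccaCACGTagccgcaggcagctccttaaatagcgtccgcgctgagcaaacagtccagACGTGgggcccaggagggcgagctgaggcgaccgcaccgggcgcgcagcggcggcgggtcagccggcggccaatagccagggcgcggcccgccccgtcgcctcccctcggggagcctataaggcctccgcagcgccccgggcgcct
The glycolytic genes shown are PGK1 (chrX:78103998-78104247, plus strand), ENO1 (chr1:8878687-8878936, minus strand) and LDHA at the first of its 2 starts (chr11:18394313-18394562, plus strand).
PGK1: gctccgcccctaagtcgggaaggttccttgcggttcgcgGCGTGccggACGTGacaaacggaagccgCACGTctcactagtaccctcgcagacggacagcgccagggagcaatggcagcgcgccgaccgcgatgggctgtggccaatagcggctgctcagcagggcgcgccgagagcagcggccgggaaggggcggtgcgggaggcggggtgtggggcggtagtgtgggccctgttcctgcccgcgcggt
ENO1: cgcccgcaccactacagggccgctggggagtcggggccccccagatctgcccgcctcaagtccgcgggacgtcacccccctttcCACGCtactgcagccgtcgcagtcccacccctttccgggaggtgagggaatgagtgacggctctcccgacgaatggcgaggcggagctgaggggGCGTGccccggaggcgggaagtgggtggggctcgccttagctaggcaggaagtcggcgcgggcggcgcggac
LDHA: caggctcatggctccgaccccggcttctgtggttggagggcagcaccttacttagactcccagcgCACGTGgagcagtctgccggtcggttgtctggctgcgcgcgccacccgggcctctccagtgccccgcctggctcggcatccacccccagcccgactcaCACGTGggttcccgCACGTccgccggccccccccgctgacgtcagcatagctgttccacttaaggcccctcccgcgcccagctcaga

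EPAS1, CA12 and ADM each held a single match in these 250 bases, beginning 117, 234 and 101 bases before the start. PLOD2 and PGK1 each held 3 matches. ENO1 held 2 matches, at 166 and 72 bases before the start. The LDHA window held 2 copies of CACGTG, which reads as ACGTG on both strands, and a further CACGT. All windows shown held a match, but not all members did. Of those not shown, P4HA2, SLC2A1, PGAM1, PKM, LDHB and ARNT held none in the 250 bases before the start. Over windows of 250 bases before to 50 after the start, 39 of the 53 starts of members (73.6%) held either motif, against 17012 of 35116 starts (48.4%) of all genes in the same table. The share was 21 of 30 starts (70.0%) for the glycolytic enzymes and 16 of 19 (84.2%) for the other hypoxia targets. Counted by gene, with a match at any start, the shares were 15 of 16 enzymes (93.8%) and 13 of 14 other targets (92.9%). Of all genes, 52.4% held a match. Of the 36 genes, 33 had an entry in the table, and NDRG1, BNIP3L and SLC2A3 had none. A match is a run of letters and not a measured binding site.

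With PonA, EPAS1, CA12 and NDRG1 rose, no member fell past the threshold, and no glycolytic enzyme passed it in either direction in the additive fit (LDHA did in 2 of 13 alternatives, given with its values). The test was a limma fit of PonA and day as additive terms to the 5 arrays of transfected cells (PonA had been given in 2 and not in 3), with Benjamini-Hochberg adjustment over 7934 probe sets and a threshold of 0.05. Of all probe sets tested, 2.7% were called higher and 2.37% lower, 5.07% in all. Among the members, 4 of 44 probe sets were called, all higher, and they belong to 3 of 36 genes. Each condition was a single array, so the p-values set the PonA effect against the ethanol difference at day 1 and the difference of the PonA effects of the 2 days, not against repeated cultures. Fewer cells of a kind and less RNA per cell cannot be told apart in such samples. Both PonA samples also held ethanol, so a value for PonA against ethanol at day 1 is given beside each called member and several others.

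**Figure D1:**
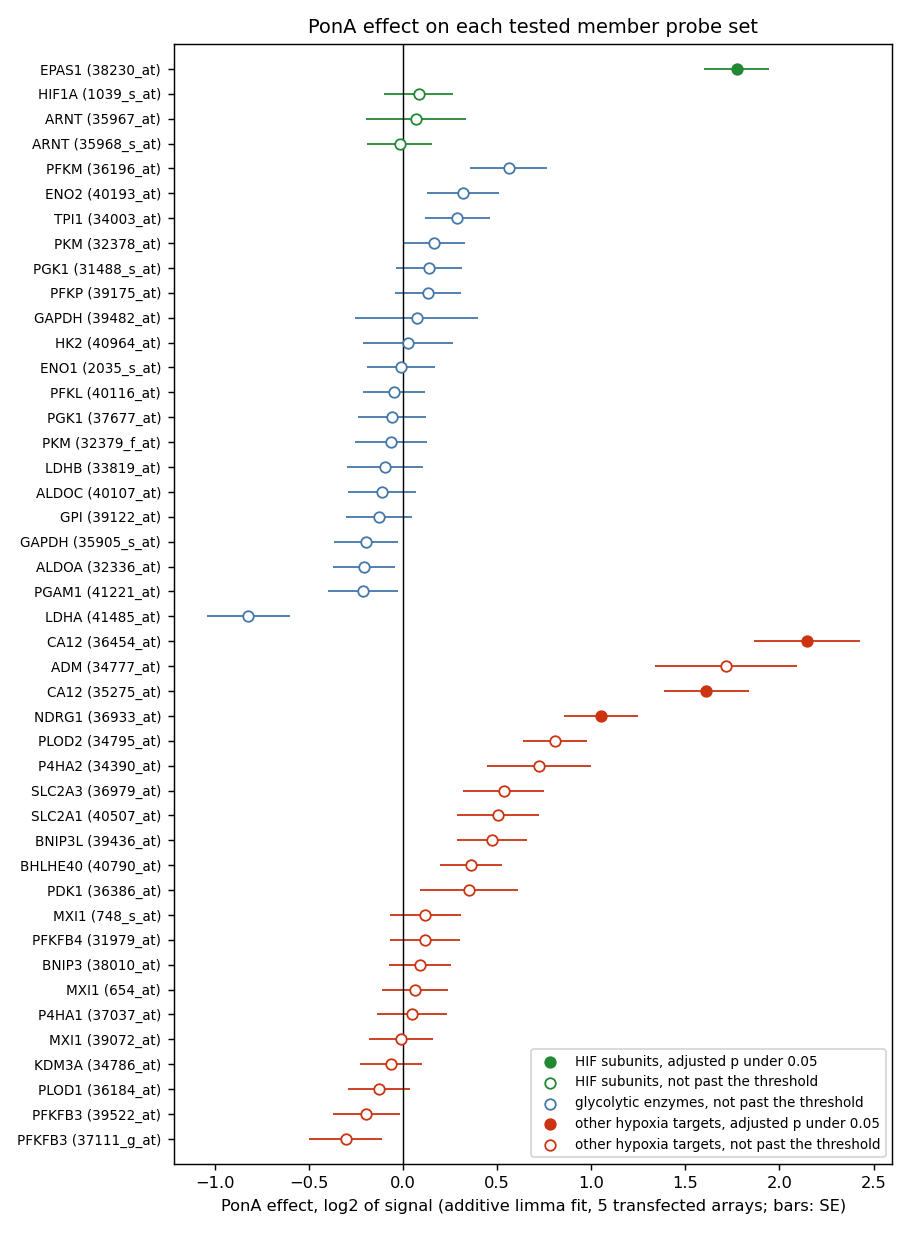
PonA effect (log2 of signal, horizontal axis) of each of the 44 tested probe sets, from the additive limma fit over 5 transfected arrays; bars are the standard error, colours the 3 lists, and filled points have an adjusted p under 0.05. The 4 filled points are EPAS1, both CA12 probe sets and NDRG1, while the glycolytic enzymes lie around 0 except PFKM at 0.56 and LDHA at -0.82.

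Among the HIF subunits, only the message of EPAS1 changed past the threshold. The EPAS1 signal (38230_at) was 127 in untransfected cells, 143 in transfected untreated cells at day 1, 158 in ethanol, 542 with PonA at day 1, 88.3 untreated at day 2 and 280.4 with PonA at day 2. Both PonA samples lay above all 4 samples without PonA. The PonA effect was 1.77 ± 0.17 on the log2 scale (SE), a 3.41-fold rise, with an adjusted p of 0.00463 in the limma fit. PonA over ethanol at day 1 came to 3.42-fold and over untreated cells to 3.80-fold at day 1 and 3.17-fold at day 2, and the first and second of these share the PonA array. The call was kept in 13 of 13 alternatives, with effects of 1.64 to 1.85 on the log2 scale and adjusted p of 0.000541 to 0.0467. A second EPAS1 probe set (38092_at) was above the floor on the PonA array of day 2 alone, at 30.6, and was not tested.

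HIF1A and ARNT did not pass the test. The HIF1A signal was 183 in untransfected cells, 217 untreated, 178 in ethanol and 196 with PonA at day 1, then 195 untreated and 225 with PonA at day 2. Its samples with and without PonA overlapped, and the PonA effect was 0.08 ± 0.18 (SE, log2) with an adjusted p of 0.859 in the limma fit. ARNT (35967_at) had signals of 84.3 in untransfected cells, 115 untreated, 65.0 in ethanol and 92.8 with PonA at day 1, then 74.5 and 75.5 without and with PonA at day 2. Its effect was 0.07 ± 0.27 (SE, log2), adjusted p = 0.926 in the limma fit, and a second ARNT probe set gave -0.02. PonA over ethanol at day 1 was 1.10-fold for HIF1A and 1.43-fold for ARNT (35967_at). With an ethanol term the effects were 0.22 for HIF1A and 0.60 for ARNT (35967_at), and 0.12 on the second ARNT probe set.

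Carbonic anhydrase CA12, a membrane enzyme that helps cells control pH and a textbook hypoxia target, rose on both of its probe sets. The brighter probe set (35275_at) read 87.8 in untransfected cells, 105 untreated, 143 in ethanol and 318 with PonA at day 1, then 88.3 untreated and 335 with PonA at day 2. The dimmer one (36454_at) was below the floor at 12.8 in untransfected cells and at 14.6 in transfected untreated cells at day 1, then read 36.7 in ethanol, 102 with PonA at day 1, 28.4 untreated at day 2 and 186 with PonA at day 2. On both probe sets the PonA samples were the highest, with the ethanol sample next below them. The PonA effect was 1.61 ± 0.23 (SE, log2; 3.05-fold; adjusted p = 0.0147) on the brighter and 2.15 ± 0.28 (adjusted p = 0.0112) on the dimmer probe set in the limma fit. PonA over ethanol at day 1 was 2.22-fold and 2.79-fold on these probe sets. With a separate ethanol term the effects were 1.23 (adjusted p = 0.0661) and 1.67 (adjusted p = 0.0385), and the brighter probe set also lost its call without either array of day 2, at adjusted p of 0.0766 and 0.0870.

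NDRG1, a stress-responsive gene long used as a hypoxia marker, was called in the additive fit but in fewer of the alternatives than EPAS1. Its signal was 951 in untransfected cells, 1495 untreated, 1926 in ethanol and 3865 with PonA at day 1, then 1954 untreated and 3576 with PonA at day 2. Both PonA samples lay above the other 4. The effect was 1.05 ± 0.20 (SE, log2), a 2.07-fold rise with an adjusted p of 0.0355 in the limma fit, and PonA over ethanol at day 1 was 2.01-fold. The call was kept in 7 of 13 alternatives; it was lost with an ethanol term (effect 0.88, adjusted p = 0.195) and without the PonA array of day 1 (adjusted p = 0.269), the untreated array of day 2 (0.108) or the PonA array of day 2 (0.122).

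**Figure D2:**
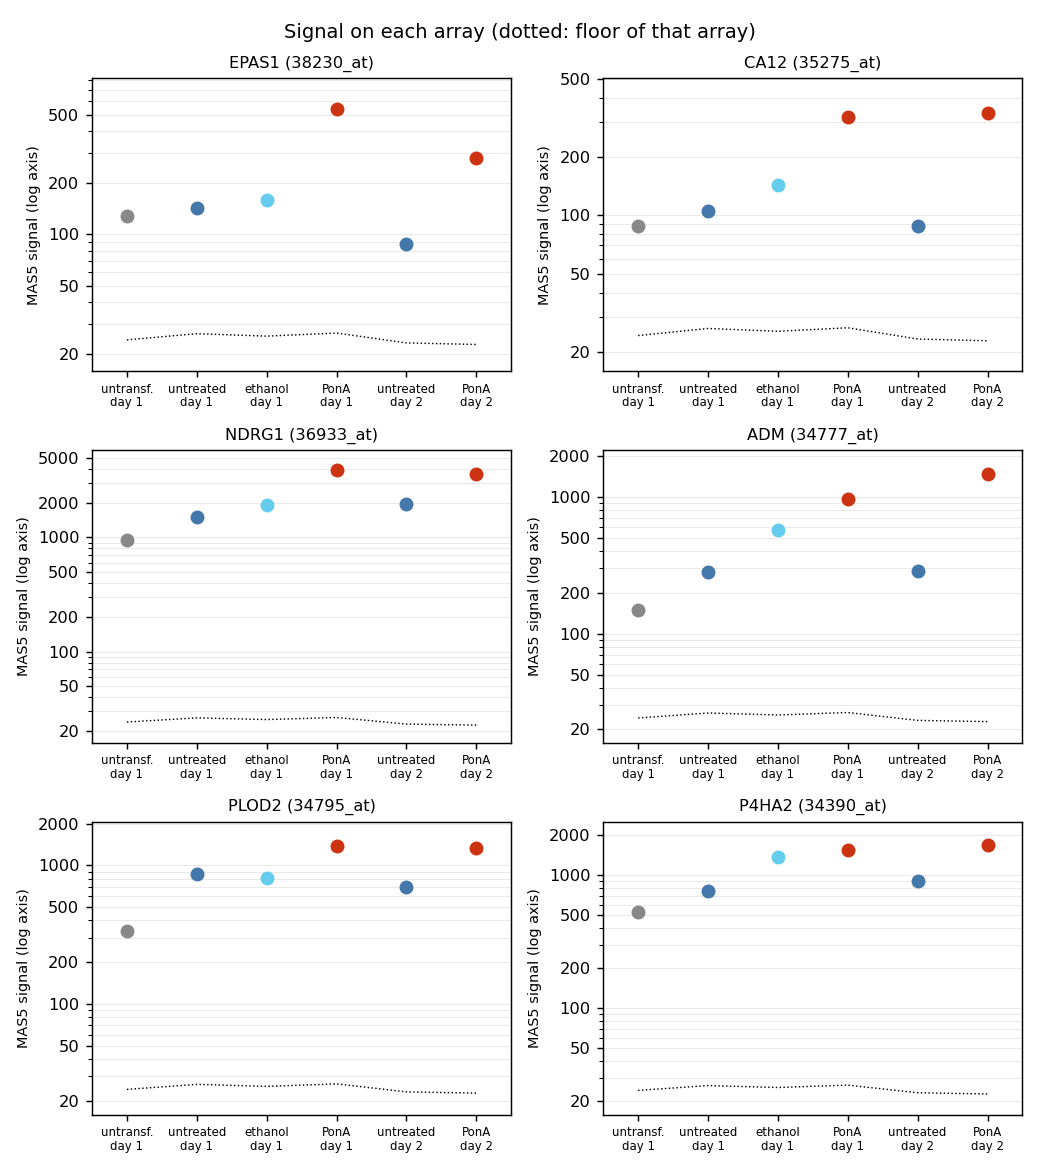
MAS5 signal (vertical log axis, arbitrary units) of 6 members on each of the 6 arrays, 1 point per array, with the floor of each array dotted. The PonA points lie above all points without PonA in each panel. The ethanol point lies between the untreated and the PonA points of day 1 in every panel except that of PLOD2. In those panels ethanol stood from 1.11-fold (EPAS1) to 2.03-fold (ADM) above untreated cells.

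ADM and PLOD2 had positive effects just short of the threshold. ADM encodes adrenomedullin, a vasodilator peptide, and its signal was 149 in untransfected cells, 284 untreated, 577 in ethanol and 959 with PonA at day 1, then 288 untreated and 1465 with PonA at day 2. Its PonA effect was 1.72 ± 0.38 (SE, log2) with an adjusted p of 0.0563 in the limma fit. Ethanol alone stood 2.03-fold above untreated cells for ADM, and PonA over ethanol at day 1 was 1.66-fold against 3.38-fold over untreated cells. With an ethanol term the ADM effect came to 0.88 (adjusted p = 0.212), and without the ethanol array to 2.05 (adjusted p = 0.000535), so the value depends on whether that array counts among the controls. PLOD2, a lysyl hydroxylase that prepares collagen for cross-linking, read 337 in untransfected cells, 870.4 untreated, 806 in ethanol and 1369 with PonA at day 1, then 700.1 and 1339.9 without and with PonA at day 2. Its untreated and ethanol samples were alike, and its effect was 0.81 ± 0.17 (SE, log2) with an adjusted p of 0.0512, or 0.83 with an ethanol term (adjusted p = 0.195). PLOD2 passed the threshold in 5 of 13 alternatives, among them without the ethanol array (0.79, adjusted p = 0.0459).

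The other hypoxia targets had smaller differences, none past the threshold in the additive fit. P4HA2, the alpha subunit of a collagen prolyl hydroxylase, read 525 in untransfected cells, 767 untreated, 1363 in ethanol and 1543 with PonA at day 1, then 898 and 1672 without and with PonA at day 2. The effect of P4HA2 in the limma fit was 0.72 ± 0.27 (SE, log2; adjusted p = 0.216), or 0.15 with an ethanol term. It passed in 1 of 13 alternatives, without the ethanol array (0.95, adjusted p = 0.0201). PonA over ethanol at day 1 was 1.13-fold for P4HA2, and ethanol over untreated cells was 1.78-fold. The glucose transporter SLC2A3 (GLUT3) likewise had its ethanol sample just below its PonA samples, at 159, 204, 279 and 305 at day 1 and 191 and 327 at day 2 in the order used for P4HA2, with an effect of 0.54 ± 0.22 (SE, log2; adjusted p = 0.241). SLC2A1 (GLUT1) read 114 in untransfected cells, 113 untreated, 79.3 in ethanol and 148 with PonA at day 1, then 86.3 and 107 at day 2. Its PonA sample of day 2 lay below its untreated sample of day 1, so the groups overlapped across days. Within a day PonA stood 1.87-fold over ethanol and 1.31-fold over untreated cells at day 1 and 1.24-fold at day 2 for SLC2A1, and its effect was 0.51 ± 0.22 (SE, log2; adjusted p = 0.273), or 0.88 with an ethanol term (adjusted p = 0.159). The mitophagy receptor BNIP3L had an effect of 0.47 ± 0.19 and the clock and stress factor BHLHE40 of 0.36 ± 0.16 (SE, log2). Effects of BNIP3, the paralog of BNIP3L, the histone demethylase KDM3A, and the collagen enzymes P4HA1 and PLOD1 lay between -0.13 and 0.09. The regulators MXI1, PDK1, PFKFB3 and PFKFB4, described with the transfection and the days, had PonA effects of -0.19 to 0.35 on their brightest probe sets. With an ethanol term these effects ran from -0.39 (PFKFB3) to 0.80 (PDK1).

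Of the 16 enzymes of the glycolytic chain, 5 varied by 1.5-fold or more between the lowest and the highest of the 6 arrays. Of all 8090 probe sets tested on 6 arrays, 71.6% did so. In hexokinase, the entry step, HK2 was dim, at 28.2 in untransfected cells, 62.0 untreated, 38.8 in ethanol and 50.9 with PonA at day 1, then 38.7 and 38.5 at day 2. Its PonA samples lay within the range of the others. GPI, which turns glucose 6-phosphate into fructose 6-phosphate, read 2956, 3808, 4526, 3796, 3584 and 3287 in the same order. The phosphofructokinase PFKP, the committed step, read 1211, 1297, 1485 and 1633 at day 1 and 1326 and 1327 at day 2. Its muscle-type paralog PFKM read 266, 226, 187 and 356 at day 1 and 296 and 353 at day 2, with both PonA samples highest and an effect of 0.56 ± 0.21 (SE, log2; adjusted p = 0.202). PonA over ethanol at day 1 was 1.91-fold for PFKM, and its effect was 0.83 with an ethanol term. PFKL, the liver type, stayed between 503 and 644.

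In the middle steps the PonA sample of each day was below the transfected samples of that day for ALDOA, GAPDH and PGAM1 and above them for TPI1, and none of these genes passed the test. The aldolase ALDOA, which splits the sugar, read 4871 in untransfected cells, 5619 untreated, 5868 in ethanol and 5049 with PonA at day 1, then 4735 and 4033 at day 2. Its PonA differences were -0.22 and -0.15 (log2) against ethanol and untreated cells at day 1 and -0.23 at day 2. ALDOC, the brain aldolase, stayed between 99.2 and 139. TPI1, which interconverts the triose phosphates, read 2596, 2311, 2626 and 3157 at day 1 and 2556 and 2928 at day 2, the PonA samples being the highest by at most 1.37-fold. GAPDH (35905_s_at) read 7542, 10163, 8972 and 8538 at day 1 and 8349 and 7068 at day 2. Its PonA differences were -0.07, -0.25 and -0.24 (log2) in the order given for ALDOA. The 3 bright control probe sets of GAPDH read 6057 to 8975 and the 3 dim ones 5.21 to 82.0. PGK1 (37677_at), the first step that makes ATP, read 3723, 4339, 3882 and 4376 at day 1 and 4345 and 3636 at day 2. A second PGK1 probe set (31488_s_at) read 850 to 1072. The PonA effects of the 2 probe sets differed in sign, at -0.06 and 0.14 (log2). PGAM1 read 5209, 7620.4, 5939.9 and 5879 at day 1 and 6426 and 5473 at day 2; its PonA samples were the lowest of the transfected ones, with an effect of -0.21 ± 0.19 (SE, log2).

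At the end of the chain, ENO1, the enolase, moved least of all 16 enzymes, at 6016 in untransfected cells, 5885 untreated, 5688 in ethanol and 6458 with PonA at day 1, then 6521 and 5527 at day 2. Its highest signal was 1.18 times its lowest. The neuronal enolase ENO2 read 518 to 832. Pyruvate kinase PKM (32378_at) read 4801, 5872, 5985 and 6723 at day 1 and 5267 and 5829.9 at day 2. Its PonA effect was 0.17 (log2), against -0.06 on a dim second probe set (32379_f_at, 23.4 to 42.7). LDHA, which turns pyruvate into lactate and is a standard HIF target, had the most negative effect of the members: its signal was 229 in untransfected cells, 258 untreated, 183 in ethanol and 138 with PonA at day 1, then 305 untreated and 147 with PonA at day 2. Both PonA samples of LDHA lay below the other 4, yet the effect of -0.82 ± 0.22 (SE, log2) had an adjusted p of 0.0969 in the limma fit. It passed in 2 of 13 alternatives, without the ethanol array (-0.97, adjusted p = 0.0183) and with a variance trend (adjusted p = 0.0486), and was -0.44 with an ethanol term (adjusted p = 0.543). PonA over ethanol at day 1 was 0.756-fold for LDHA, ethanol over untreated 0.708-fold and PonA over untreated at day 2 0.484-fold. Its paralog LDHB, at 1784, 1868, 1363 and 1451 at day 1 and 1639.6 and 1597 at day 2, showed no such order.

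**Figure D3:**
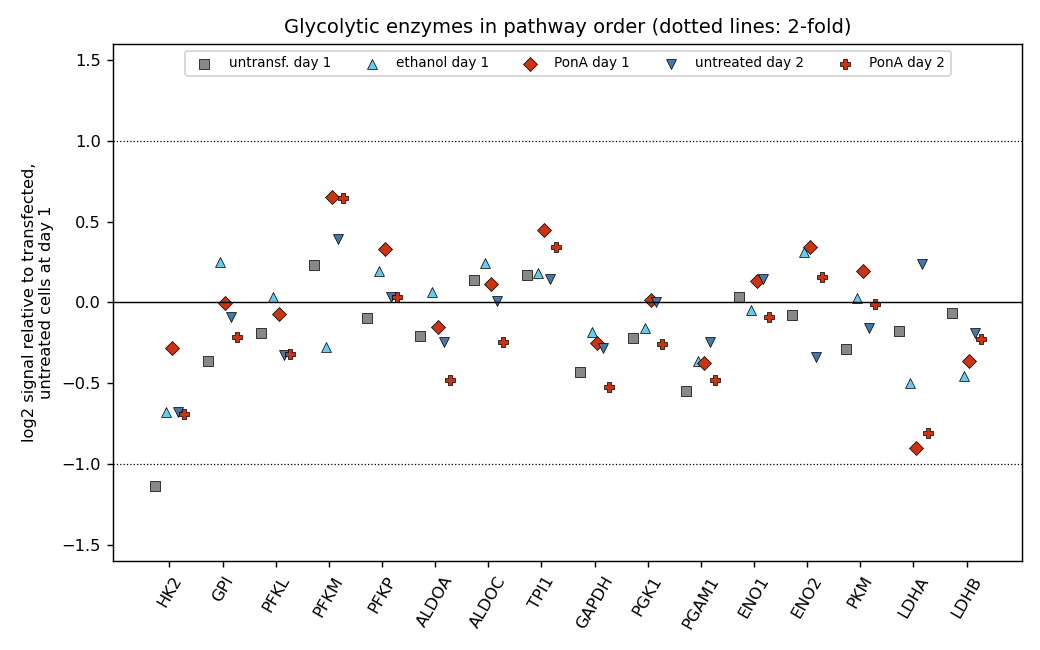
Log2 signal of the 16 glycolytic enzymes (vertical axis) relative to transfected, untreated cells at day 1, in the order of the pathway, 1 symbol per array; dotted lines mark 2-fold. All points lie within 2-fold except untransfected HK2, and the PonA points lie farthest from 0 for LDHA, on the low side.

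The members spread over the arrays to different extents. From the lowest to the highest of the 6 arrays, the glycolytic enzymes spanned 1.18-fold (ENO1) to 2.20-fold (LDHA), with a median of 1.42-fold, and 2 of 16 reached 2-fold. The other hypoxia targets spanned 1.46-fold (BHLHE40) to 9.86-fold (ADM), with a median of 2.22-fold, and 11 of 17 reached 2-fold. Of all 8090 probe sets tested on 6 arrays, 31.0% reached 2-fold, with a median of 1.72-fold. On the 5 transfected arrays alone the medians were 1.38-fold and 1.87-fold, and 22.6% of all probe sets tested there reached 2-fold. These spans describe 1 array a condition, and the difference between the lists was not tested.

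In the additive fit the glycolytic enzymes had a median PonA effect of -0.05 (log2), with 6 positive and 10 negative, and 0 of 16 passed the limma threshold, 2 (PFKM and LDHA) having an unadjusted p under 0.05. The other hypoxia targets had a median of 0.36, with 13 positive and 4 negative, and 2 of 17 were called, 7 having an unadjusted p under 0.05. Over all 7934 probe sets the median was 0.01, 50.8% were positive and 19.5% had an unadjusted p under 0.05. With the ethanol term the medians were 0.06 for the enzymes and 0.18 for the other targets, and neither list then held a gene called on its brightest probe set. Both PonA samples lay above all 3 transfected samples without PonA for 9 of the 17 other targets (ADM, BHLHE40, BNIP3, BNIP3L, CA12, NDRG1, P4HA2, PLOD2 and SLC2A3) and below them for 1 (PLOD1), against 16.6% above and 15.4% below of all probe sets. Of the 16 enzymes, 2 lay above (PFKM and TPI1) and 2 below (LDHA and PGAM1). No margin was required, and BNIP3 was counted at 1375 with PonA at day 1 against 1367 untreated at day 2.

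Counted without a test, at least 2-fold differences were few. PonA over ethanol at day 1 reached 2-fold higher for 3 of 36 genes, against 3.23% of all probe sets above the floor on either array, and 2-fold lower for none (background 2.4%). PonA over untreated cells reached it for 5 genes at day 1 (background 3.58%, with none 2-fold lower against 3.12%) and for 3 at day 2 (background 4.67%), where LDHA was the 1 gene at least 2-fold lower (background 4.04%). EPAS1 and CA12 were the 2 genes of the members at least 2-fold higher in all 3 of these comparisons, against 1.33% of all probe sets. In the same comparisons the median log2 difference of the enzymes was 0.06, 0.00 and -0.08, and that of the other targets 0.18, 0.32 and 0.35. The PonA effects of the 2 days were compared in a limma fit with a PonA-by-day term, which called 0 of 7934 probe sets (0%), 4.16% having an unadjusted p under 0.05, and 0 of the 44 of the members, none at an unadjusted p under 0.05 either. That fit had 1 residual degree of freedom.

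Ethanol alone left most members in place. ADM was the 1 gene of 36 at least 2-fold above untreated cells at day 1, against 1.04% of all probe sets, and none was 2-fold lower (background 1.15%). The median log2 difference was -0.01 for the enzymes and 0.13 for the other targets, with the same untreated array as denominator as in the PonA comparison of day 1.

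Transfected cells without PonA already stood above untransfected cells for several hypoxia targets. At day 1 and untreated, HK2 (2.20-fold), MXI1 (2.36-fold and 3.50-fold on its brighter probe sets, at least 2.14-fold on the dimmest), P4HA1 (2.74-fold) and PLOD2 (2.58-fold) were at least 2-fold higher, 4 of 36 genes against 3.08% of all probe sets. None of the members was 2-fold lower (background 2.64%). The median log2 difference was 0.18 for the enzymes and 0.51 for the other targets, against 0.04 for all probe sets.

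MXI1, a MAX partner that opposes MYC, was higher in all 5 transfected samples than in untransfected cells on each of its probe sets. Its brightest probe set (39072_at) read 273 in untransfected cells, then 646 untreated, 709 in ethanol and 640.3 with PonA at day 1, 747 untreated and 794 with PonA at day 2. The probe set 654_at read 112 in untransfected cells and 393, 456, 419, 465 and 526 in the same order. All 5 transfected samples were thus 2.34 to 2.91 times and 3.50 to 4.68 times the untransfected one, with or without PonA. P4HA1, the paralog of P4HA2, read 599 in untransfected cells, then 1643, 1433, 1408, 1208 and 1463, that is 2.02 to 2.74 times. BNIP3 read 719.8 and then 1272 to 1428, and PLOD1 2385 and then 3604 to 4083.

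All 5 transfected samples lay above the untransfected one for 16 of 36 members, against 21.5% of all probe sets, and below it for 0, against 21.1%. The 16 were 11 of 17 other targets (ADM, BNIP3, CA12, KDM3A, MXI1, NDRG1, P4HA1, P4HA2, PLOD1, PLOD2 and SLC2A3) and 5 of 16 enzymes (GPI, HK2, PFKP, PGAM1 and PKM). No margin was required, and the lowest transfected sample of CA12 (35275_at) was 1.005 times the untransfected one. In a limma fit over 6 arrays with a transfection term, read after the data were seen, 0.26% of 8090 probe sets passed an adjusted p of 0.05 (0.161% higher and 0.0989% lower) and 14.9% an unadjusted p of 0.05, the latter against 11 of 44 among the members. Past the adjusted threshold, only MXI1 (654_at) stood among the members, at 1.89 ± 0.22 (SE, log2; adjusted p = 0.0492). Its brightest probe set (adjusted p = 0.0887), PLOD2 (1.28 ± 0.22, adjusted p = 0.0887) and P4HA1 (1.30 ± 0.24, adjusted p = 0.103) did not. Untransfected cells were a single array, assumed in that fit to vary like the others, so array and transfection cannot be told apart. The spiked-in controls were lowest on that array and GFAP, NEFL and THY1 highest, as given above, and their part in these differences was not tested.

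**Figure D4:**
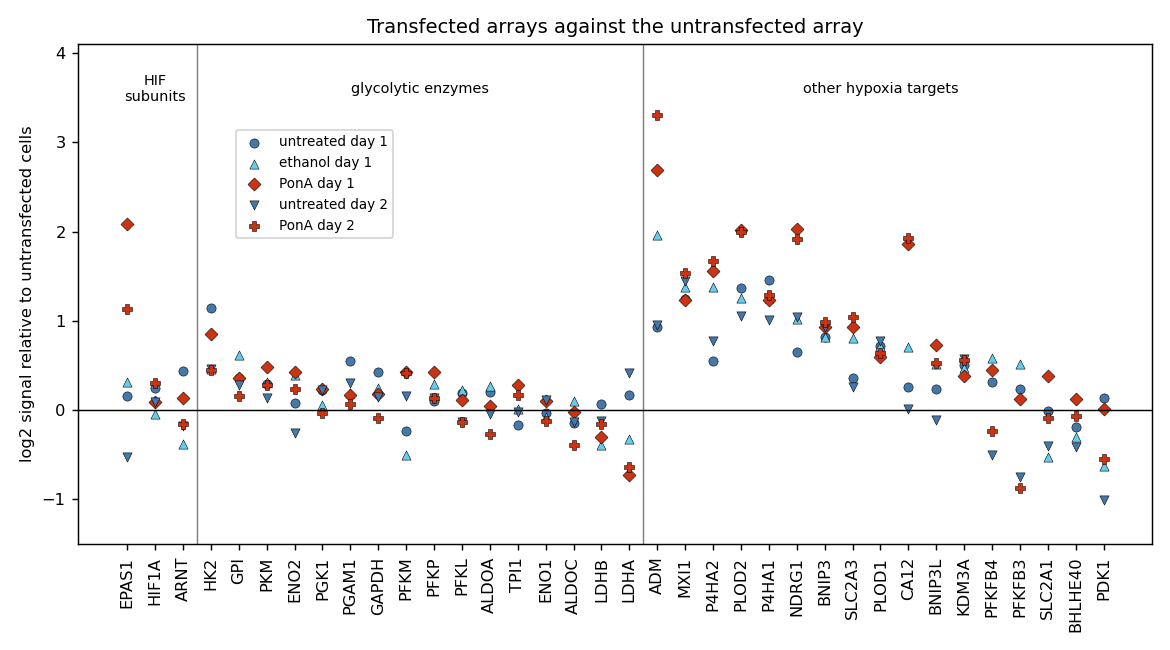
Log2 signal of each of the 36 genes on the 5 transfected arrays relative to the untransfected array (vertical axis), grouped by list, 1 symbol per array. MXI1, P4HA1, BNIP3 and PLOD1 lie above 0 with their 5 points close together, while the PonA points of EPAS1, ADM, NDRG1 and CA12 stand above the other points.

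Between the days, PFKFB3 and PFKFB4 had lower signals at day 2, although no member passed the test of the day term. These enzymes make fructose 2,6-bisphosphate, the activator of phosphofructokinase, and PDK1 holds pyruvate back from the mitochondria. PFKFB3 (39522_at) read 314 in untransfected cells, 369 untreated, 449 in ethanol and 343 with PonA at day 1, but 187 untreated and 172 with PonA at day 2. A second probe set of PFKFB3 (37111_g_at) read 249, 276, 349 and 275 at day 1 and 148 and 107 at day 2. PFKFB4 read 298, 370.1, 446 and 407 at day 1 and 210.4 and 254 at day 2. All day 2 samples of both genes lay below all day 1 samples, the untransfected one included.

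The day terms of the additive limma fit, read after the data were seen, were -1.07 ± 0.18 (SE, log2) for PFKFB3 (39522_at; adjusted p = 0.232) and -0.83 ± 0.18 for PFKFB4 (adjusted p = 0.239), and EPAS1, whose signals are given above, had -0.85 ± 0.17 (adjusted p = 0.234). The day term called 0 of 7934 probe sets (0%), 13.2% having an unadjusted p under 0.05, against 8 of the 44 of the members. PDK1 read 56.8 in untransfected cells, 62.6 untreated, 36.7 in ethanol and 57.5 with PonA at day 1, then 28.2 and 39.0 at day 2. Its untreated sample of day 2 was 0.450 times that of day 1, the 1 gene of the members 2-fold lower in untreated cells (background 2.15%), but its ethanol sample of day 1 lay below its PonA sample of day 2. Both day 2 samples lay below the 3 transfected samples of day 1 for 8 of 36 genes, against 19.7% of all probe sets. These were ALDOA, GAPDH, GPI, HK2, PFKL, PKM, PFKFB3 and PFKFB4. The day 2 samples lay above for 2 genes (KDM3A, and MXI1 on its brightest probe set), against 8.41%. The dimmest MXI1 probe set (748_s_at) went the other way, at 51.8 to 67.2 at day 1 and 42.5 and 38.7 at day 2. Between the PonA samples, PFKFB3 on its second probe set was 0.389 times its level of day 1, against 2.05% of probe sets 2-fold lower, and a dim GAPDH probe set (39482_at) went from 16.9, below the floor, to 55.0, at least 2.08-fold higher (background 0.882%). Day 2 was also where the beta-actin 3′ to 5′ ratio was highest, and the part of that in the differences between days was not tested.

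**Figure D5:**
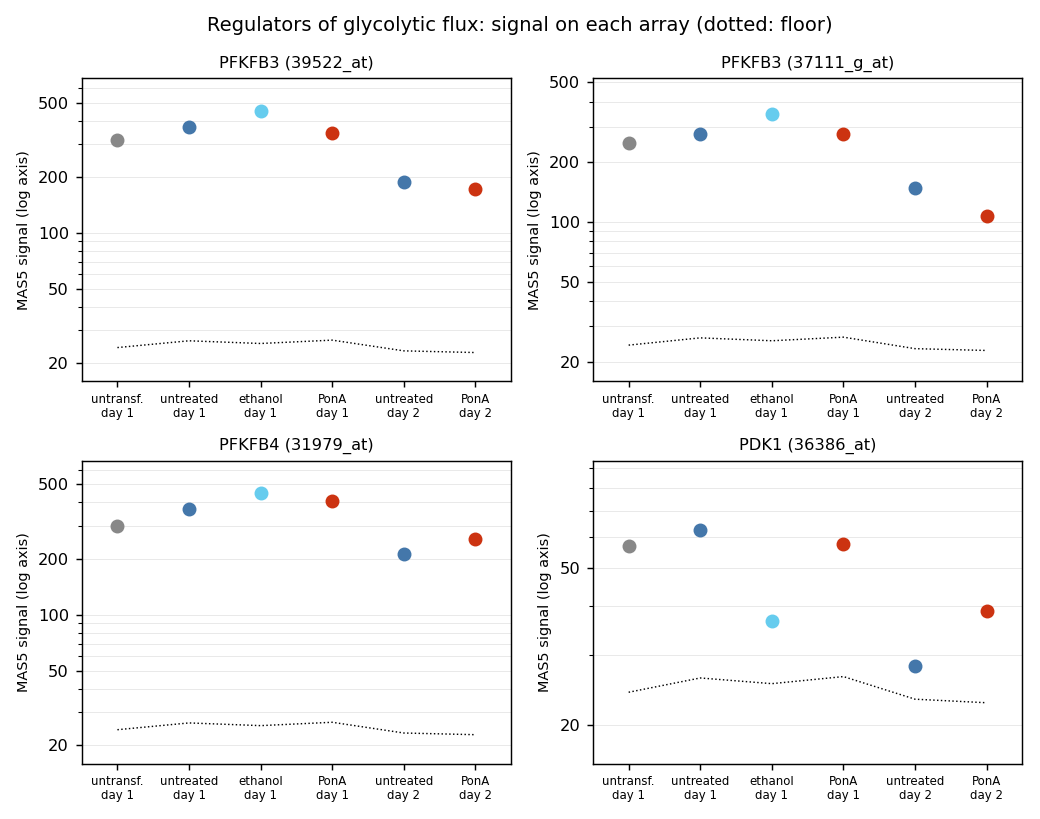
MAS5 signal (vertical log axis, arbitrary units) of PFKFB3 on 2 probe sets, PFKFB4 and PDK1 on each of the 6 arrays, with the floor of each array dotted. The day 2 points of PFKFB3 (107 to 187) and PFKFB4 (210.4 and 254) lie below their day 1 points, whereas for PDK1 the days overlap.

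Genes of the same pathways outside the list were counted in the same way. Of all probe sets tested, 5.07% were called, 19.5% had an unadjusted p under 0.05 in the limma fit and 50.8% had a positive effect. Of the genes that sense oxygen or turn HIF over (VHL and its complex, the coactivators CREBBP and EP300, and relatives), 7 of 13 listed were tested, 0 were called in the limma fit and 0 had an unadjusted p under 0.05; the median PonA effect was -0.02 (log2). Of other genes of glucose metabolism, 12 of 28 were tested and 1 was called. This was BPGM, which makes the 2,3-bisphosphoglycerate that bypasses PGK1. It read 157 in untransfected cells, 115 untreated, 124 in ethanol and 228 with PonA at day 1, then 97.0 and 236 at day 2, and rose by 1.08 ± 0.18 (SE, log2; adjusted p = 0.0238). With an ethanol term the BPGM effect was 0.96 and no longer past the threshold (adjusted p = 0.138).

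At the entry of pyruvate into mitochondria, 9 of 12 listed genes were tested, 0 rose and 1 fell on its brightest probe set. Of all probe sets, 2.7% were called higher and 2.37% lower. PDK2, a kinase that switches pyruvate dehydrogenase off, read 177 in untransfected cells, 144 untreated, 153 in ethanol and 38.9 with PonA at day 1, then 123 and 45.1 at day 2. Both PonA samples lay below the other 4, and the effect was -1.72 ± 0.19 (SE, log2; adjusted p = 0.00637), with -1.15 on a second probe set (adjusted p = 0.0193). With an ethanol term these were -1.86 (adjusted p = 0.0153) and -1.16 (adjusted p = 0.0849). PDK3, a related kinase, rose on 1 dim probe set (36719_r_at, 0.90 ± 0.17, adjusted p = 0.0350) but not on its brightest (0.62 ± 0.23, adjusted p = 0.209), and with an ethanol term the dim one did not pass either (adjusted p = 0.114).

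Of further hypoxia-responsive genes, 20 of 27 were tested, 1 was called higher and 0 lower on the brightest probe set. The share of all probe sets called was 5.07%. The median PonA effect was 0.26 (log2), with 17 positive and 3 negative, against 50.8% positive of all probe sets. PPP1R3C, which steers a phosphatase to glycogen, read 115 in untransfected cells, 196 untreated, 281 in ethanol and 513 with PonA at day 1, then 179.7 and 528 at day 2, and rose by 1.31 ± 0.23 (SE, log2; adjusted p = 0.0273), or 0.91 with an ethanol term, where the call was lost (adjusted p = 0.150). VEGFA, the angiogenic factor, read 934, 1601, 1909.7 and 2689 at day 1 and 1101 and 2442 at day 2 on its brightest probe set. That probe set did not pass (0.85 ± 0.20, adjusted p = 0.0712), while a dimmer VEGFA probe set did (1.34 ± 0.26, adjusted p = 0.0390), though not with an ethanol term (0.87, adjusted p = 0.200).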

How the data were processed

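The deposited values are MAS5 signal intensities from Human Genome U95Av2 arrays, 1 array for each of 6 conditions; MAS5 is named in the submitters' processing notes, and its version and settings are not given in the sources used here. They were used as the authors scaled them. Symbols came from the platform annotation, updated to RefSeq GRCh38.p14: 10943 of 12558 probe sets that are no controls carried 1 symbol, 545 several and 1070 none. The brightest probe set stood for a gene with more than 1.

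Signals below the array's 40th percentile (the floor) were raised to it before log2 was taken. The PonA effect came from limma 3.58.1 (R 4.3.3; lmFit, eBayes) with PonA and day terms over the 5 transfected arrays, for probe sets brighter than the floor in 2 or more of them, with Benjamini-Hochberg adjustment. The fit had 2 residual and 4.48 prior degrees of freedom. Its code was run on simulated data with independent noise and planted effects larger than most of those given here. That run says nothing of smaller effects or of the spread between cultures. Comparisons of 1 array with 1 array have no test; a fold with 1 side below the floor is a lower bound. Alternatives were other floors, a pseudocount of 16 units, quantile normalization, other filters, a variance trend, an ethanol term, all 6 arrays and leaving out each array.

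The members and lists were chosen with earlier results of these data known. Named with all signals were members past the threshold, members 2-fold apart in all 3 PonA comparisons or in the ethanol, transfection or day comparison, the HIF subunits and the glycolytic chain; ADM, PLOD2 and others near the threshold, and VEGFA and PDK3 outside the list, were added after their values were seen. The markers of astroglia, neurons, oligodendrocytes, blood cells, and fibroblasts or epithelium served to check the cell line.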

Additional observations from a re-analysis of the deposited data

How the results depend on the processing

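No paired analysis was possible because the labels carry no replicate numbers; the day that arrays share is a term of the additive fit. Leaving out each transfected array in turn gave 111 to 725 called probe sets in place of 402, and 2 to 8 called probe sets of the members in place of 4: 8 without the ethanol array and 2 without the untreated or the PonA array of day 2. The counts over all probe sets and over the members were 107 and 1 with a floor at the 20th percentile, 29 and 1 without a filter on dim probe sets, 625 and 7 with a variance trend, and 185 and 2 with an ethanol term; more probe sets were tested in the first and second of these, and the cause of the others was not tested. In the comparisons without a test, the 1 probe set of the members at least 2-fold apart between ethanol and untreated cells became 3 with the lower floor and 0 after quantile normalization, and the 1 between the untreated days became 0 with the pseudocount and 0 after quantile normalization. The 1 member called for transfection became 0 after quantile normalization. With ACGTG as the only motif counted, 22 starts of members (41.5%) held it in place of 39, against 21.4% of all starts. The share was 50% of enzyme starts and 36.8% of starts of the other targets. The median PonA effect of the enzymes (-0.05, log2) was -0.08 to 0.02 with an array left out, 0.06 with an ethanol term and 0.00 after quantile normalization, and so has no stable sign, while that of the other targets stayed positive, at 0.33 to 0.42 and 0.18 with an ethanol term. NDRG1 and both CA12 probe sets lost their calls with the lower floor and without the filter, at adjusted p of 0.0808 to 0.132. No value reversed its direction past the threshold. With 1 array a condition, the spread between cultures is unknown, and dim probe sets such as HK2, PDK1 and the second ones of CA12 and EPAS1 lie within a few fold of the floor.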

Other observations

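IGFBP3, a secreted binding protein of insulin-like growth factors and a gene of the further hypoxia-responsive list, was singled out after its values were seen. It read 119 in untransfected cells, 849 untreated, 1146 in ethanol and 1221 with PonA at day 1, then 1352 untreated and 1446 with PonA at day 2. All 5 transfected samples lay above the untransfected one, and those with and without PonA overlapped. A second probe set of IGFBP3 (37319_at) read 170.2 in untransfected cells and 828 to 1325 in the transfected ones. The difference rests on a single untransfected array.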
